A study of Homo sapiens with 8 samples.

Results

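CTCF, a zinc-finger protein best known for organising chromatin loops, also contacts RNA. The RNA regions described here are the listed CTCF peaks that lie toward the 3′ ends of protein-coding genes. A peak was taken when its middle base fell in the 3′-most 33.3% of the gene's span on build hg38, reading in the direction of the peak's strand. Such peaks are called end-proximal below. Where several protein-coding genes covered that base, the shortest was used. Both peak lists of the series were searched, and 266 of their 719 peaks met the rule, 57 of 147 in proliferating cells and 209 of 572 in senescent cells. Peaks of a gene that lay within 50 nt of each other were merged into sites, which gave 47 proliferating and 106 senescent sites, 153 in all.

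The series used IMR90 cells, primary human lung fibroblasts, of wild-type genotype in every group, at passage 5. One state was untreated and proliferating. The other carried the treatment that the labels call ICM and describe as inducing senescence, a lasting stop of cell division. RNA was fixed to protein by ultraviolet light, and the fragments held by an antibody against CTCF were sequenced (eCLIP), with an input library made without antibody as the background. Each state had 2 eCLIP and 2 input libraries, 8 libraries in all, but only 1 joint peak list per state was used here, so no value had a replicate error and no difference between the states could be tested over samples. The culture isolate behind each library is not named in the labels, and the read depth is unknown.

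The 3′ end of a transcript is where the RNA is cleaved and receives its poly(A) tail. The sequence before that point usually holds the last exons and the 3′ untranslated region, which regulate stability, transport and translation of the messenger RNA. A gene's span on the genome also contains its introns, so a base in this part of the span can be exonic or intronic. Which of these applied to each site was not analysed here, since the annotation used held gene spans without exons.

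No genome sequence was used, so the bases of the peaks are not shown. The RefSeq miRNA table (build GRCh38.p14) held 1 hairpin within 200 nt of any of the 153 sites, on the same strand, beside a proliferating peak in ENO1. It is printed as the only sequence context in the tables used here for one of these sites. The peak (chr1:8866403-8866490, minus strand) began 11 nt downstream of the last base of the hairpin (chr1:8866502-8866590, minus strand), so the hairpin itself was outside the peak. The mature 3p arm is in capitals.
MIR6728: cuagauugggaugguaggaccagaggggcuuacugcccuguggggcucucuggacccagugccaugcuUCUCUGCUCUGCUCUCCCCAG

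Among peaks whose middle base lay in a protein-coding gene, 43.2% of 132 proliferating peaks (exact binomial 95% interval 34.6% to 52.1%) and 38.1% of 548 senescent peaks (34.1% to 42.4%) were end-proximal. The intervals, here and below, cover counting error only. Of equal parts of the span, the 5′-most held 31 proliferating and 190 senescent peaks, and the middle one held 44 and 149. In both lists the end-proximal part thus held the most peaks. Among sites the shares were 43.9% (47 of 107, 34.3% to 53.9%) and 38.5% (106 of 275, 32.8% to 44.6%), so merging did not move them beyond their intervals. The senescent interval over sites included 33.3%, the share of the span itself. Across the 20056 annotated coding genes, 0.160% had a proliferating and 0.479% a senescent end-proximal site, which are 32 and 96 genes.

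Within the end-proximal part, the senescent sites lay closer to the end than the proliferating sites did, when distance was taken as a share of the gene's span. Position in the span had chosen these sites, so this describes the chosen sites only. The alternatives for the share in the last 20% were chosen after seeing the data. Of the senescent sites, 72.6% (77 of 106, exact 95% interval 63.1% to 80.9%) lay in the last 20% of the span, against 48.9% of the proliferating sites (23 of 47, 34.1% to 63.9%), with intervals that overlapped slightly. When each span was cut into 10 equal bins from 5′ to 3′, bins 8, 9 and 10 held 18, 12 and 11 proliferating sites and 18, 40 and 37 senescent sites. Among these bins, proliferating sites were therefore most frequent in bin 8 and senescent sites in bins 9 and 10. Over the whole span the fullest senescent bin was bin 1, the 5′-most, with 48 sites, and proliferating bin 1 held 11. Of all sites in coding genes, bins 9 and 10 held 11.2% and 10.3% of 107 proliferating sites. They held 14.5% and 13.5% of 275 senescent sites, so the lists differed less there than among end-proximal sites alone. When each gene was counted once by its nearest site, the shares in the last 20% were 53.1% of 32 genes (34.7% to 70.9%) and 72.9% of 96 genes (62.9% to 81.5%), and these intervals overlapped more widely. Whether this gap exceeds the spread between replicates could not be tested.

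**Figure D1:**
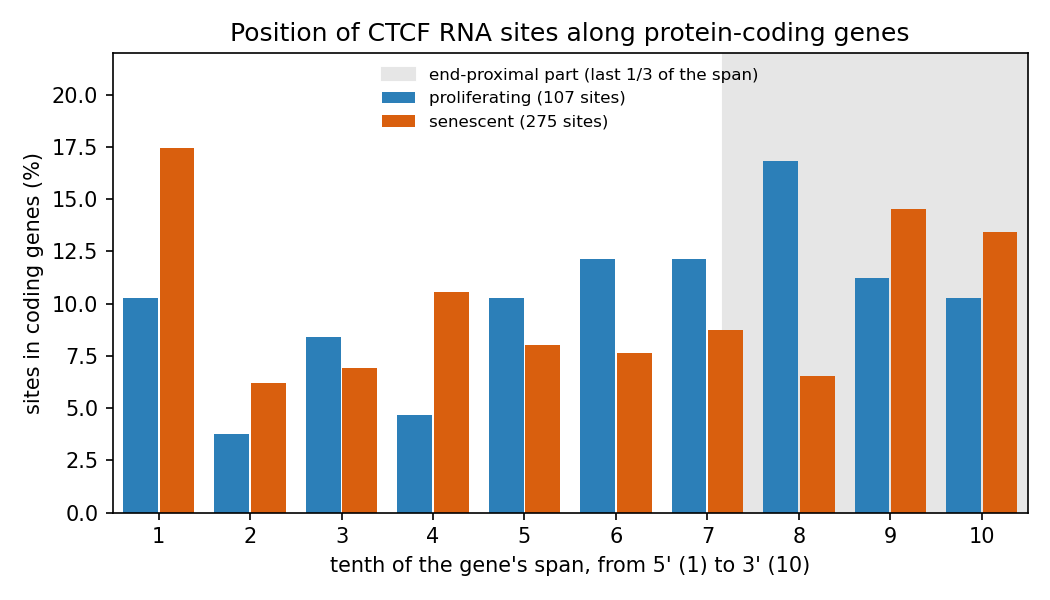
Share of merged sites (y axis, % of 107 proliferating or 275 senescent sites in coding genes) in each of 10 equal bins of the gene's span (x axis, 5′ to 3′), with the end-proximal part shaded. Among bins 8 to 10 the proliferating bars are highest in bin 8 (18 sites) and the senescent bars in bins 9 and 10 (40 and 37 sites). The highest senescent bar of all is bin 1, the 5′-most (48 sites).

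In nucleotides the lists did not separate. The median distance from the middle of a site to the annotated 3′ end was 7530 nt in the proliferating list (quartiles 3349 and 22326 nt) and 7557 nt in the senescent list (quartiles 2584 and 31874 nt). The exact 95% intervals of these medians were 4820 to 14023 nt and 4651 to 14117 nt. Among peaks with a signal value of at least 4 the medians were 16728 nt (10 sites) and 12431 nt (79 sites). Distances ran from 305 to 230766 nt and from 201 to 173158 nt, since the end-proximal part of a long gene is itself long. The median span of the genes was 40354 nt for the 32 proliferating genes and 73444 nt for the 96 senescent genes. Only 4 of 47 proliferating sites (8.51%, exact 95% interval 2.37% to 20.4%) and 12 of 106 senescent sites (11.3%, 5.99% to 18.9%) had their middle within 1000 nt of the end. Within 5000 nt there were 18 (38.3%) and 45 (42.5%). Most sites of both lists were therefore more than 5000 nt from the end.

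**Figure D2:**
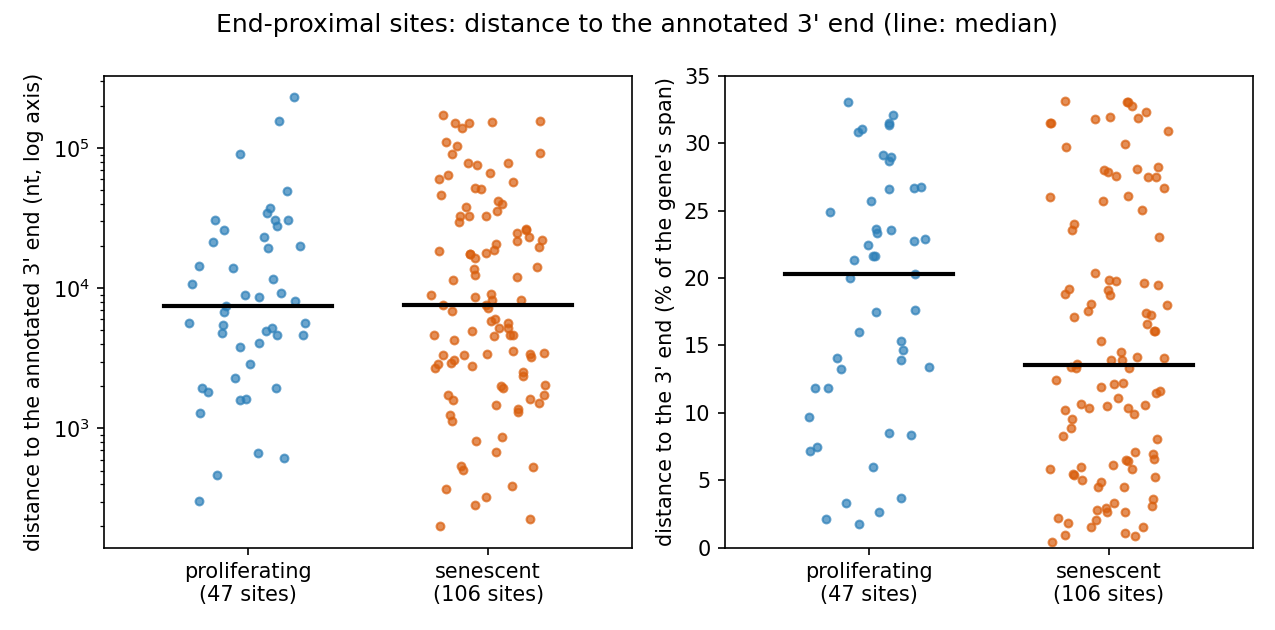
Distance of each end-proximal site (points, 47 proliferating and 106 senescent sites) to the annotated 3′ end, in nt on a log axis (left) and as % of the gene's span (right), with the median as a line. The medians are 7530 and 7557 nt on the left, and 20.3% and 13.5% of the span on the right.

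The 4 proliferating sites nearest to an end lay in short genes of abundant cytosolic proteins. The nearest was in ENO1, the glycolytic enzyme enolase (chromosome 1, 8861000 to 8878686), at 8861256 to 8861355, 305 nt from the end, with a signal value of 3.06. Signal values are the authors' score of a peak against input, on a scale that was not stated, and are read only within a list. HSPB1, a small heat shock protein, had a site 464 nt from the end (chromosome 7, 76303802 to 76303855, signal value 3.15). CFL1, which encodes the actin-severing protein cofilin, had one at 618 nt (chromosome 11, 65855224 to 65855359, signal value 3.01). These 3 signal values were close to the lowest in the list, 3.003. The site in HSPA8, a constitutive heat shock protein, lay at 667 nt (chromosome 11, 123058151 to 123058162, signal value 3.68) and overlapped SNORD14E, a snoRNA gene inside HSPA8. The snoRNA and its host cannot be told apart there. None of these 4 genes had a senescent end-proximal site, which was also so for 19 of all 32 proliferating genes. The fifth nearest was in PLEC, 1295 nt from the end.

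The 5 senescent sites nearest to an end were in 5 other genes. EFNB1, the ephrin-B1 ligand of Eph receptors, had 4 abutting peaks in a site 201 nt from the end (chromosome X, 68841921 to 68841998), with a signal value of 5.84. CYBA, a subunit of the NADPH oxidase, had an 8-nt peak at 227 nt (chromosome 16, 88643513 to 88643520, signal value 3.16). MGRN1, a ubiquitin ligase, had a 4-nt peak at 283 nt (chromosome 16, 4690688 to 4690691, signal value 3.25). EFNB1 thus combined the shortest distance with a signal value above the median of 4.65 over the 106 senescent sites, while CYBA and MGRN1 were near the minimum. CTSL, the lysosomal protease cathepsin L, had a 104-nt peak at 326 nt (chromosome 9, 87731092 to 87731195, signal value 3.17). LAMB2, a laminin chain of basement membranes, had a site of 2 peaks at 370 nt (chromosome 3, 49121431 to 49121538, signal value 4.76). The other 7 of the 12 sites within 1000 nt were in PITRM1, which had 2, and in EMILIN1, NIPSNAP1, ZFAND6, ACIN1 and SNURF. Their distances ran from 391 nt in PITRM1 to 864 nt in SNURF. The SNURF site also lay in SNRPN and SNHG14, which share that stretch, so its transcript of origin is uncertain.

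A total of 13 genes had an end-proximal site in both lists, 40.6% of the 32 proliferating and 13.5% of the 96 senescent genes. In 10 of them sites of the lists shared bases, and their middles then differed by at most 17 nt. DCN, which encodes the collagen-binding proteoglycan decorin, had its proliferating site at 91146069 to 91146133 and its senescent site at 91146074 to 91146157 on chromosome 12, 5617 and 5631 nt from the end. The 2 sites shared 60 bases. PNN, the speckle protein pinin, had sites sharing 109 bases at 1615 and 1622 nt (chromosome 14, 39181551 to 39181660 and 39181537 to 39181659). PPP1R12C, a regulatory subunit of myosin phosphatase, had sites sharing 75 bases at 1592 and 1594 nt (chromosome 19, 55092473 to 55092547 and 55092472 to 55092553). It also had a second senescent site at 1723 nt, with no proliferating counterpart.

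The other 7 genes with shared bases had them from 1938 to 156398 nt from the end. NIBAN2 had sites 1938 and 1955 nt away that shared 58 bases. In HTRA1, a secreted serine protease, the sites lay 8173 and 8188 nt away and shared 33 bases. NSD2, a histone H3 lysine methyltransferase, shared 75 bases at 26069 and 26063 nt. In these 3, as in DCN and PNN, the middles lay within 17 nt of each other. SLCO5A1, a transporter family member, shared 59 bases at 23315 and 23312 nt, and MYLK, the myosin light chain kinase, shared 9 bases at 90694 and 90693 nt. Both MYLK sites also lay in the span of LOC105369194, a noncoding RNA gene. DST, the cytoskeletal linker dystonin, shared 54 bases at 156386 and 156398 nt, and its second senescent site at 153585 nt had no counterpart. CWF19L1 shared 8 bases at 4982 and 4985 nt, but both of its sites lay inside SNORA12, a snoRNA gene within it, so host and snoRNA cannot be told apart. Coinciding sites thus occurred from 1592 to 156398 nt from the end.

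In the remaining 3 genes the lists held different positions. EMILIN1, an elastic-fibre glycoprotein, had its proliferating site 1941 nt and its senescent site 506 nt from the end, with 1362 nt between them. MYH9, the heavy chain of non-muscle myosin, had proliferating sites at 21336 and 30918 nt and a senescent site at 17692 nt. PLEC, the linker protein plectin, had 7 proliferating sites between 1295 and 14394 nt and 1 senescent site at 6843 nt, which lay 1560 nt from the nearest of the 7. All these genes had the senescent site outside every proliferating site.

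**Figure D3:**
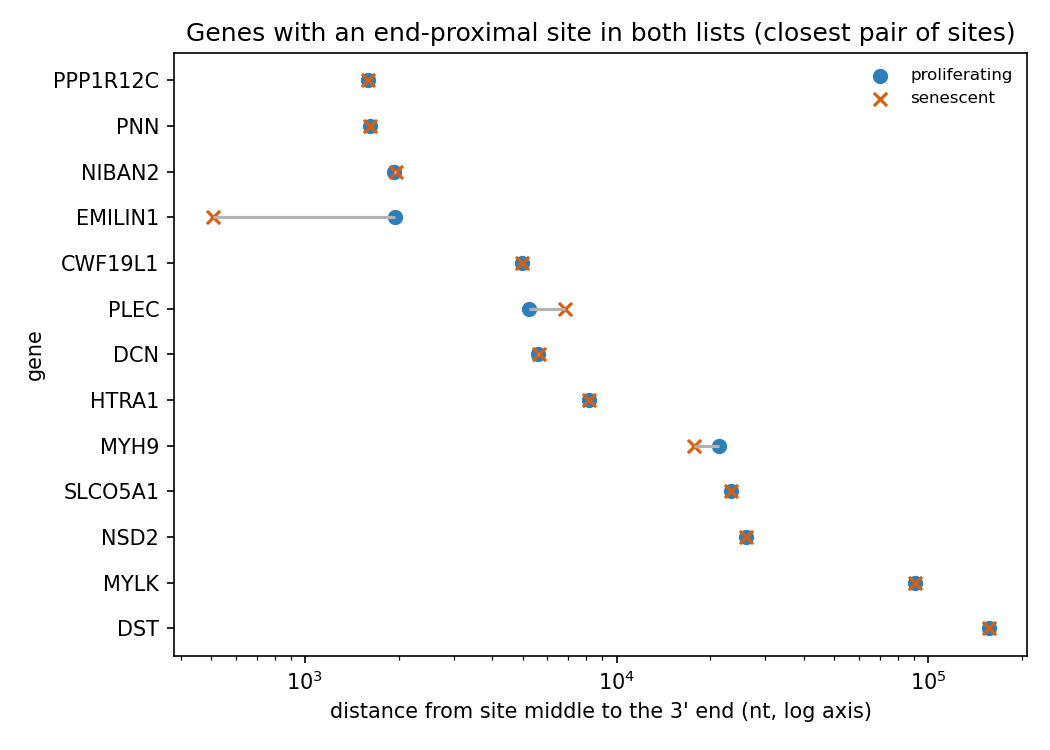
Distance from the middle of the site to the annotated 3′ end (x axis, nt, log scale) for the 13 genes with an end-proximal site in both lists, using the closest pair of sites (dots proliferating, crosses senescent). The marks coincide within 17 nt in 10 genes and separate in EMILIN1, MYH9 and PLEC.

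The share of sites common to the lists was compared between end-proximal sites and the rest of the genes. In the proliferating list 10 of 47 end-proximal sites overlapped a senescent site by at least 1 base (21.3%, exact 95% interval 10.7% to 35.7%), and 12 of the 60 other sites in coding genes did (20.0%). Over all 107 sites in coding genes the share was 20.6%. The difference of 1.28 percentage points (Newcombe 95% interval -13.7 to 17.2) gave p = 1 in Fisher's exact test (two-sided; Benjamini-Hochberg adjusted p = 1 over the 2 lists). In the senescent list 10 of 106 end-proximal sites overlapped a proliferating site (9.43%, 4.62% to 16.7%), against 12 of 169 other sites (7.10%) and 8.0% of all 275. That difference of 2.33 points (-4.14 to 10.0) gave p = 0.501 in the same exact test (adjusted p = 1). Sites of 1 gene are not independent, and the test carries no replicate error. The 10 end-proximal overlaps were the same ones seen from each list, so the 2 tests are not independent either. A difference was not shown in either list, and the intervals allow one of up to 17.2 points in the proliferating list. With signal values of at least 4 the proliferating difference was 32.5 points (7 of 10 end-proximal sites overlapping, exact p = 0.226, adjusted p = 0.238).

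The members were also grouped by gene lists. Of 38 secreted matrix genes, whose products fibroblasts release to build connective tissue, 8 had a proliferating end-proximal site and 4 a senescent one. Over all coding genes the shares were 0.160% and 0.479%, but that background includes genes that fibroblasts do not transcribe, so nothing is read from the gap. The proliferating members were COL1A1, COL1A2, COL3A1, COL4A1, COL4A2, COL6A3, DCN and HSPG2, and the senescent members were COL5A1, DCN, PXDN and TGFBI. DCN was the only one in both lists. The lists were chosen with earlier results of these data known, so their counts are no independent evidence.

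COL1A1, a chain of type I collagen, had proliferating peaks 3791 and 5630 nt from the end (chromosome 17, 50187876 to 50187908 and 50189730 to 50189732). The second was 3 nt wide and was at 400, the ceiling of the authors' -log10 p-value. COL1A2, the other chain, had a 2-nt peak at 9328 nt (chromosome 7, 94421899 to 94421900), with a -log10 p-value of 50.4 and a signal value of 3.23. Type I collagen thus had narrow, statistically strong peaks with signal values near the minimum. COL3A1 had a 41-nt peak at 8624 nt with a signal value of 3.43, and COL6A3 an 89-nt peak at 10660 nt with 3.005. The type IV collagen pair, which forms basement membrane sheets, had more end-proximal sites. COL4A1 had 4 between 27702 and 49540 nt, and COL4A2 had 2 at 6760 and 19947 nt. The COL4A2 site at 6760 nt also lay in the span of the antisense gene COL4A2-AS1. HSPG2, the basement membrane proteoglycan perlecan, had 2 sites at 30570 and 30697 nt. None of these 7 genes had a senescent end-proximal site, but neither did 19 of all 32 proliferating genes, these 7 included. In COL1A1 and COL1A2 the rest of the span held 3 and 6 further proliferating sites, so their end-proximal peaks were part of a spread along the gene.

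The senescent matrix members were placed differently from gene to gene. COL5A1, a regulator of collagen fibril assembly, had sites 35592 and 64732 nt from the end, the second made of 3 peaks. TGFBI, a matrix protein induced by TGF-beta, had a 6-nt peak at 9066 nt (chromosome 5, 136054750 to 136054755), and PXDN, a peroxidase that crosslinks collagen IV, a 7-nt peak at 16359 nt. Their signal values were 3.20 and 3.58. In DCN the 3 senescent peaks were 3, 6 and 75 nt wide from 3′ to 5′, with signal values of 6.06, 5.81 and 4.89. The single proliferating DCN peak had a signal value of 3.44 within its own list, which is not compared with the senescent values. DCN was the only matrix member among the 10 senescent end-proximal sites of highest signal value.

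Of 35 cytoskeleton and lamina genes, 6 had a proliferating and 5 a senescent end-proximal site. Over all coding genes the shares were 0.160% and 0.479%, a background with the limit given above, so nothing is read from the gap. PLEC held the most end-proximal sites of any gene in the proliferating list, 7, and no site elsewhere in its span. Their distances to the end were 1295, 2275, 4618, 5232, 9023, 14023 and 14394 nt. The signal values ran from 3.16 to 4.41, and the highest belonged to the site at 14023 nt. LMNA, which encodes the nuclear lamina proteins lamin A and C, had proliferating sites at 4100 and 4820 nt with widths of 147 and 92 nt. FLNC, an actin crosslinking filamin, had one at 4624 nt, and TLN1, which couples integrins to actin, one at 7530 nt. The FLNC site also lay in the span of the antisense gene FLNC-AS1. LMNA, FLNC and TLN1 had no senescent end-proximal site and were among the 19 of 32 proliferating genes without one. In the senescent list VCL, the adhesion protein vinculin, had a 177-nt peak at 7204 nt with a signal value of 3.03, and SPTBN1, a spectrin, had a site at 42158 nt with 4.94. DST, MYH9 and PLEC were in both lists.

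Of 37 splicing and hnRNP genes, PNN had a proliferating end-proximal site, and ACIN1, PNN and RSRP1 had senescent ones. The shares over all coding genes, 0.160% and 0.479%, have the same limit here. ACIN1, a component of the splicing-dependent exon junction machinery, had a site of 3 peaks 817 nt from the end (chromosome 14, 23059322 to 23059441), with a -log10 p-value of 52.1. RSRP1, an arginine- and serine-rich protein, had a site of 2 peaks at 4310 nt. PNN was covered by 4 proliferating peaks with signal values from 3.97 to 4.14, and by 2 senescent peaks with 3.55 and 4.45. These values are not compared between the lists. In all, 8 of the 37 genes had a senescent site anywhere in their span, against 1.18% of all coding genes. Nothing is read from that gap.

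Of 28 translation genes, 0 had a proliferating and 2 a senescent end-proximal site, although 3 and 6 of them had a site somewhere in their span. Over all coding genes 0.160% and 0.479% had an end-proximal site. Nothing is read from the gap to these shares, here or for the fibroblast markers below. EIF3A, a subunit of the initiation factor that binds the small ribosomal subunit, had a 5-nt peak at 4657 nt, and EIF4B, a helper of the eIF4A helicase, a site of 2 peaks at 8241 nt. Of 21 genes for 3′ end processing and RNA export, 0 had a site in either list, at any position. The lists leave out peaks below a signal value of 3, so this shows no listed peak and not that the transcripts were unbound. Of 11 fibroblast markers, 4 proliferating and 1 senescent had an end-proximal site, and of 14 markers of epithelial, endothelial and blood cells 0 had a site in either list, at any position. Since only 0.299% (proliferating) and 1.18% (senescent) of all coding genes had a site anywhere, a count of 0 among 21 or 14 genes says little. A peak list does not measure expression, so the cell type was not checked by it.

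Ranked by signal value within the proliferating list, the 10 highest end-proximal sites were in PPP1R12C, RYR2, AAMDC, SLCO5A1, HTRA1, PLEC, DST, NSD2, CWF19L1 and PNN. PPP1R12C led with 5.88. RYR2, a calcium release channel best known from heart muscle, followed with 5.04, in a site of 2 peaks 230766 nt from the end (chromosome 1, 237603151 to 237603293). AAMDC reached 4.84 at 19432 nt, where the span of INTS4 also lay, annotated on the other strand. Of the 10 genes, 8 also had a senescent end-proximal site, all except RYR2 and AAMDC, against 13 of all 32 proliferating genes (40.6%). These are the same 10 sites as those with a signal value of at least 4 above, so this is no separate observation. In PLEC that senescent site did not overlap, and in the other 7 it did.

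The 10 highest senescent end-proximal sites were in DST, with 2, and in TUBGCP3, ALPK2, SRCAP, DNMT3A, DCN, IL6ST, FAM107B and NRG1. DST had signal values of 6.69 and 6.62 at 153585 and 156398 nt. TUBGCP3, a component of the microtubule-nucleating ring, had 6.23 at 39971 nt (chromosome 13, 112524936 to 112525029), and ALPK2, a kinase, 6.14 at 14117 nt. Chromatin enzymes among them were SRCAP, the motor of a histone-exchange complex, with 6.11 at 3403 nt, and the DNA methyltransferase DNMT3A with 6.08 at 18392 nt. IL6ST, the signalling receptor of the interleukin-6 family, had 6.03 at 3239 nt (chromosome 5, 55938303 to 55938366). FAM107B had 6.02 at 29830 nt. NRG1, a ligand of ErbB receptors, had 5.94 at 150904 nt and was the senescent gene with the most end-proximal sites, 4 sites of 10 peaks between 78489 and 152030 nt from the end. Of these 9 genes, DST and DCN had a proliferating end-proximal site, as did 13 of all 96 senescent genes (13.5%). The senescent sites of highest signal value were thus spread from 3239 to 156398 nt. The -log10 p-value ranked sites differently, with PPP1R12C, CLSTN1 and IGFBP5 at its ceiling of 400, at 1594, 1731 and 2797 nt. None of the 10 sites of highest signal value lay within 1000 nt of an end. Only 12 of all 106 senescent sites did (11.3%), so this count says little. Sites within 1000 nt that ranked a little lower were in EFNB1 (5.84 at 201 nt) and ZFAND6 (5.83 at 682 nt).

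**Figure D4:**
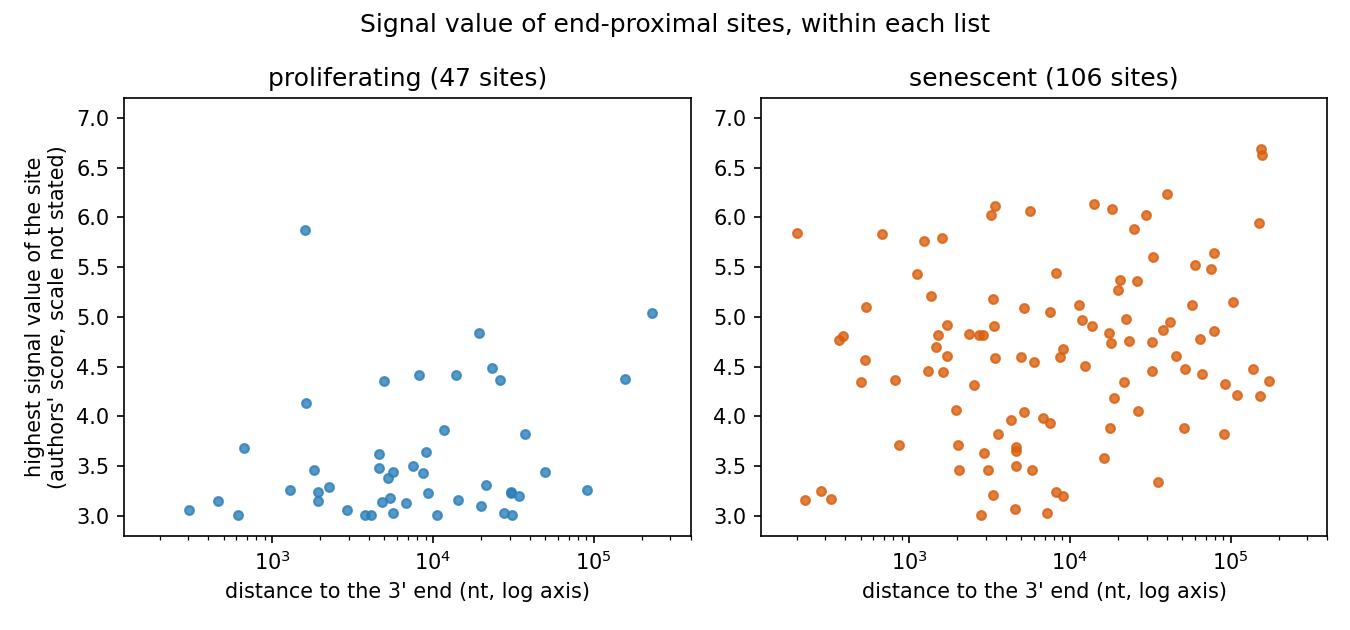
Highest signal value of each end-proximal site (y axis, the authors' score, scale not stated) against its distance to the annotated 3′ end (x axis, nt, log scale), in separate panels for the 47 proliferating and 106 senescent sites. Values are to be read within a panel, where PPP1R12C at 1592 nt is highest on the left and DST at 153585 nt on the right.

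Signal values of end-proximal peaks overlapped widely with those of the other peaks of their list. The median was 3.44 for 57 proliferating end-proximal peaks (quartiles 3.16 and 4.14) and 3.57 for the 75 others (3.24 and 4.33). In the senescent list it was 4.47 for 209 end-proximal peaks (3.79 and 4.98) and 4.91 for the 339 others (4.05 and 5.39). A -log10 p-value of at least 10 was held by 23 of 57 proliferating end-proximal peaks (40.4%) and 46 of the 75 others (61.3%), and by 125 of 209 (59.8%) and 213 of 339 (62.8%) in the senescent list. The ceiling of 400 was reached by 1 of 57 proliferating end-proximal peaks and 4 of the 75 others. In the senescent list it was reached by 5 of 209 and 26 of 339. Among end-proximal sites, those up to 2000 nt from the end had a median signal value of 3.25 (10 sites) against 3.31 beyond (37 sites) in the proliferating list, and 4.70 (23 sites) against 4.60 (83 sites) in the senescent list. These are descriptions of each list, with no test.

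The sites were built differently in the lists. Of 47 proliferating end-proximal sites 6 held several peaks (12.8%), and of 106 senescent sites 76 did (71.7%), with at most 4 peaks in a site. In the senescent sites of several peaks the narrowest peak was the one nearest the 3′ side in 72 of 76, and the highest signal value was there in 53. In the 6 proliferating ones these counts were 4 and 1. The 3 senescent peaks of DCN, given above, show this order. Peaks per site thus differed between the lists, and counts of sites are the safer measure of how many regions were listed.

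The direction of the genes was checked where the promoter table gave it. Of the 57 proliferating end-proximal peaks, 43 lay on the annotated strand of their gene, and 14 had no strand in the table. Of the 209 senescent peaks, 168 lay on it, 39 had none, and 2 lay on the opposite strand. Both of the latter formed 1 site in PSMD14, a subunit of the proteasome, on the minus strand of a plus-strand gene (chromosome 2, 161340947 to 161341038), over the pseudogene MXRA7P1. As PSMD14 is transcribed, that site lay 32567 nt from the 5′ end of the span, 31.5% of the way along it. It thus met the rule only through the strand of its peaks. At the limit of the rule, the proliferating peak just inside was in MYLK, 66.9% along the span, and the peak just outside was in COL6A2 at 64.6%. In the senescent list these were SCAF1 at 66.7% and CCDC50 at 66.1%.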

How the data were processed

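The data were 2 narrowPeak lists of CTCF eCLIP, 1 per state. Per the file headers, the authors placed peaks on hg38 with input as the reference. Each list is attached to the first eCLIP replicate, but its header names both replicates, and it was taken as their joint list, which is an assumption. The deposited signal value is a score of unstated scale, and the deposited -log10 p-value stops at 400. The aligner, peak caller, joining rule and thresholds are not given in the sources used here. A minimum signal value leaves weak peaks out.

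Peaks were placed by their middle base (end-proximal: the 3′-most 33.3%) in the spans of 20056 protein-coding genes of the RefSeq table (GRCh38.p14, 59792 genes). Strand was known for 15843 of these, from the RefSeq promoter table. Peaks of 1 gene and strand within 50 nt were merged. Shares have exact binomial (Clopper-Pearson) 95% intervals, medians exact binomial intervals, and differences Newcombe intervals. Fisher's exact test (scipy 1.17.1, two-sided, threshold 0.05) compared overlap between end-proximal and other sites, adjusted over 2 lists. Placement and test were tested on simulated data. Genes were named if they had end-proximal sites in both lists, were among the 5 nearest to an end or the 10 highest by signal value per list, lay at the limit of the rule, or belonged to 5 gene lists. The members and lists were chosen with earlier results of these data known. Alternatives covered gene choice, strand, small RNA genes, peak strength, merging, placement and overlap.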

Additional observations from a re-analysis of the deposited data

How the results depend on the processing

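No paired analysis was possible because neither peak list gives values per replicate, and leaving out each replicate was not run for the same reason. Distance to the nearest transcript end was not run, since only gene spans were used. Across 12 results, 122 alternatives were computed, of which 20, all on the share of sites in the last 20% of the span, were chosen after seeing the data. In 105 the result stayed within its interval, within 1.5 times its count, or on its side of the threshold with its direction kept. In 12 it moved and in 5 its sign turned.

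The share of peaks near the end was, by construction, 31.1% (proliferating) and 29.6% (senescent) for the last 25% of the span and 61.4% and 51.5% for the last 50%. Among peaks at or above 10 on the -log10 p scale, the proliferating share was 33.3%, with 19 proliferating and 70 senescent sites, and 4.29% of the latter overlapped the other list. With a signal value of at least 4, 10 proliferating sites were left, with a median distance of 16728 nt and 70.0% overlapping a senescent site, and the senescent median distance was 12431 nt (79 sites). With the senescent list reduced to 147 peaks, 10.6% of proliferating end-proximal sites overlapped.

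The difference in overlap between end-proximal and other sites never passed the threshold (Fisher's exact p from 0.226 to 1, adjusted 0.238 to 1), and its sign was not stable. In the proliferating list it was -3.26 points with the gene strand known and equal, -9.92 with peaks at or above 10 on the -log10 p scale, -0.132 with merging at 0 nt and -2.70 with the reduced senescent list, but 32.5 with a signal value of at least 4. In the senescent list it was -4.05 points with peaks at or above 10 on the -log10 p scale, and 4.42 with a signal value of at least 4. The cause was not tested. The share of sites in the last 20% of the span stayed between 46.7% and 53.1% (proliferating) and between 68.4% and 73.6% (senescent) over 10 alternatives each. Unknown depth limits any comparison of list lengths.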

Other observations

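Outside the end-proximal part, 5 further senescent peaks lay on the strand opposite to the annotated strand of the shortest coding gene at their middle base, and 0 proliferating peaks did. They were 2 in SRP19 (chromosome 5, 112878035 to 112878043 and 112878046 to 112878101), where the span of REEP5 also lay, 1 in LHX4 (chromosome 1, 180272006 to 180272072), within ACBD6 and the antisense gene LHX4-AS1, and 2 in UBAP1 (chromosome 9, 34206196 to 34206222 and 34206226 to 34206231), over the 5S rRNA pseudogene RNA5SP282. A second 5S rRNA pseudogene, RNA5SP242, lay under the 3 proliferating peaks assigned to the end-proximal part of GARIN1A (chromosome 7, 128697476 to 128697557, signal value up to 3.86). Whether these peaks belong to the overlapping gene was not tested.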
